A study of Caenorhabditis elegans with 2 samples.

Results

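The regions described here are candidate binding regions of GFP-tagged F52B5.7 on the X chromosome of Caenorhabditis elegans that lie away from tRNA genes. A region was included when its summit, the base of highest signal, was more than 250 bp from every annotated tRNA gene. This left 4220 of the 4414 X regions, out of 30000 candidate regions in the pooled list. The same rule gave 25329 autosomal regions in the pooled list. It gave 4954 X regions in the list of replicate 1 and 3938 in that of replicate 2, each of 30000 candidates. The rule uses position alone and no measured value. Near its limit, 5 X regions had summits from 200 to 250 bp from a tRNA gene, with signals from 30.3 to 148, and 1 of them was kept. A lone region at 250 to 300 bp had a signal of 32.6 and was not kept.

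The data come from chromatin immunoprecipitation and sequencing (ChIP-seq) with a GFP antibody on whole young adults of strain OP606, genotype unc-119(tm4063) III; wgIs606. The transgene wgIs606 carries F52B5.7 joined at its C terminus to GFP and FLAG, and animals were collected 63 h after synchronisation as starved L1 larvae. There were 2 biological replicates in 1 group, so no comparison of conditions is possible, and comparisons are between X and autosomes, between classes of regions and between replicates. The labels call the animals mixed sex and pooled male and female. Males carry a lone X and hermaphrodites a pair, so the number of X copies per animal is not known here. Whole animals were used, so the cells in which a region was bound cannot be told. The control that the labels list was not analysed here, and read depth is unknown from these lists.

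In C. elegans the dosage compensation complex binds the hermaphrodite X chromosomes and lowers their transcription, so that X-linked genes are expressed at similar levels in both sexes. The complex is recruited at rex sites, short stretches of X marked by clustered copies of a motif called MEX, whose core includes the letters GCGCAGGG. In the germline, by contrast, X carries few of the highly expressed genes. F52B5.7 is annotated here only by its sequence name, and no role is assigned to it.

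The windows below are shown because they hold the strongest X signals or the letters GCGCAGGG. These letters were in 7 of the 86 strong X windows, a larger share than in other regions, and were chosen after those windows had been seen. Each runs from 50 bp before to 50 bp past a summit, read 5′ to 3′ on the plus strand of the RefSeq sequence (ce11). Capitals mark GCGNAGGG, where N is any base, on either strand, so that the reverse complement CCCTNCGC is also in capitals. GCGCAGGG is a case of GCGNAGGG and itself contains GCAGGG. The first 6 windows are the 6 strongest X regions, none of which overlaps an untranslated region (UTR). The others are the remaining strong X regions with GCGCAGGG, picked after their sequence was seen.
Window at chrX:11094157-11094257, signal 370: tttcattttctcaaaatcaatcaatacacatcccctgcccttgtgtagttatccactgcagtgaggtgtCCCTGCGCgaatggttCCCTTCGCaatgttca
Window at chrX:4209231-4209331, signal 300.4: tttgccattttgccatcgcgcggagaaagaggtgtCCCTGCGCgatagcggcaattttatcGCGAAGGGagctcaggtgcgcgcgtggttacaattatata
Window at chrX:6296518-6296618, signal 287: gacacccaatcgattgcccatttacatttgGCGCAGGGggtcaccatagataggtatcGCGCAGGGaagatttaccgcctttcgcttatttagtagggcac
Window at chrX:13700834-13700934, signal 264: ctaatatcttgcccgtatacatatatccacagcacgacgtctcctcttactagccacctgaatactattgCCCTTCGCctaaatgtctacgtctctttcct
Window at chrX:11937470-11937570, signal 261: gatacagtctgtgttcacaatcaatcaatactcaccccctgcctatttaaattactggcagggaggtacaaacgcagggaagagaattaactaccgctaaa
Window at chrX:16056582-16056682, signal 248: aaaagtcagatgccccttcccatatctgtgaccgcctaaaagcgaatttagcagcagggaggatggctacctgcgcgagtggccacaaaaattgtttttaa
Window at chrX:14525842-14525942, signal 239.6: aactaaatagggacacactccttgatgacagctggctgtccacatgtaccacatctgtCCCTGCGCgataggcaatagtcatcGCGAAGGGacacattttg
Window at chrX:2997069-2997169, signal 207: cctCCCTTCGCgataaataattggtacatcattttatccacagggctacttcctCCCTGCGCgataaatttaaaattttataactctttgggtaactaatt
Window at chrX:806652-806752, signal 196: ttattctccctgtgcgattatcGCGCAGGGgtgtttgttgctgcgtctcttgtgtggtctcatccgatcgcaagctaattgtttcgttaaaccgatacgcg
Window at chrX:1837830-1837930, signal 174: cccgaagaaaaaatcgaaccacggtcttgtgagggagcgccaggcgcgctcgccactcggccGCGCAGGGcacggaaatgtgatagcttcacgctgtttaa

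Away from tRNA genes, X held fewer of the strong regions than the autosomes did. The authors' optimal list on ce11 is the set of 1032 regions they kept after comparing lists by the irreproducible discovery rate, and it consisted of exactly the 1032 strongest pooled regions by signal. Being kept and having a high signal are therefore the same measure here. Of the 4220 X regions, 86 were kept (2.04%, 95% exact Clopper-Pearson interval 1.63 to 2.51), against 781 of 25329 autosomal regions (3.08%, 2.87 to 3.30). The intervals do not overlap, but they cover counting error only, because regions of the same libraries are not replicates. Of all candidates, regions near tRNA genes included, 3.44% were kept. On X, 75 of the 194 regions near tRNA genes were kept, so the lower X share applies to regions away from them and not to X as a whole. Among autosomal regions away from tRNA genes, the kept share was 2.61% on V, 3.06% on II, 3.11% on I, 3.34% on IV and 3.38% on III. X was below each of these, although its interval overlaps that of V, which runs from 2.21 to 3.06.

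Both replicates gave the lower X share when their own 1032 strongest regions were taken. In replicate 1, 112 of 4954 X regions were among them (2.26%, 1.87 to 2.71), against 3.14% of autosomal regions (2.93 to 3.37). In replicate 2, the share was 1.93% on X (1.52 to 2.41) and 3.15% on autosomes (2.94 to 3.37). The replicates differed in how many candidates fell on X at all. X held 16.7% of the candidates away from tRNA genes in replicate 1, 13.3% in replicate 2 and 14.3% in the pooled list. For scale, X makes up 17.7% of the genome's length and holds 13.7% of its protein-coding genes.

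Counted from the kept side, X held 86 of the 867 kept regions away from tRNA genes (9.92%, 8.01 to 12.1). The share was 12.6% among the strongest regions of replicate 1 (10.5 to 15.01) and 8.62% in replicate 2 (6.85 to 10.7). Near the top of the list the counts are small. Of the 25 strongest pooled regions, 23 lay away from tRNA genes and 1 of these was on X. Of the 100 strongest, 91 lay away from tRNA genes and 6 were on X (6.59%, 2.46 to 13.8). This interval includes the 9.92% among kept regions but not the 14.3% among all pooled candidates away from tRNA genes. Further down, 23 of the first 217 regions away from tRNA genes were on X (10.6%, 6.84 to 15.5) and 43 of the first 411 (10.5%, 7.68 to 13.8).

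The bulk of X regions had nearly the same signal as autosomal ones, and the lists parted in the upper tail. The signal is the value the authors deposited for each region, on no stated scale, and it is set side by side only within a list. In the pooled list the median was 45.2 on X and 45.9 on autosomes, a ratio of 0.984. At the 90th percentile the signals were 76.6 and 80.9, and at the 99th percentile they were 148 and 166, a ratio of 0.895. In replicate 1 the ratio was 0.981 at the median and 0.900 at the 99th percentile. In replicate 2 it was 0.966 and 0.791. The strongest X region had a signal of 370 and the strongest autosomal region 2954, and 19 autosomal regions exceeded the strongest X region. The 86 kept X regions had signals from 115.6 to 370 with a median of 148. The 781 kept autosomal ones had a median of 144, but both sets start at the same signal limit, so the medians are drawn together by the choice of regions.

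**Figure D1:**
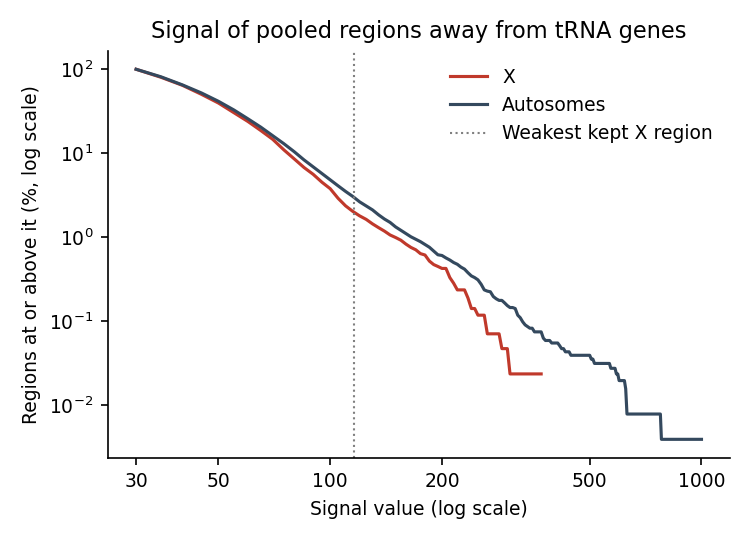
Share of pooled regions away from tRNA genes (vertical axis, percent, log scale) whose signal is at or above the value on the horizontal axis (log scale, drawn up to 1000), for 4220 X and 25329 autosomal regions. The curves run together near the medians of 45.2 and 45.9 and part to the right, where the X curve ends at 370 and the autosomal curve runs on.

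The strong X regions lay mainly outside protein-coding genes. Of the 86 kept, 65 had their summit outside protein-coding genes (75.6%, 65.1 to 84.2), 12 in an intron, 7 in coding sequence and 2 in a UTR. Of the 781 kept autosomal regions, 344 lay outside protein-coding genes (44.0%, 40.5 to 47.6) and 209 in coding sequence (26.8%, 23.7 to 30.01). In coding sequence the X share was 8.14% (3.34 to 16.1). The weaker X regions did not share this layout, since 28.0% of the other 4134 lay outside genes and 40.5% in coding sequence. Weaker autosomal regions differed from kept autosomal ones in the same direction, with 23.6% outside genes and 45.3% in coding sequence. In the strongest regions of replicate 1, 61.6% of X and 37.6% of autosomal summits lay outside genes. In replicate 2 the shares were 72.4% and 48.1%.

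Set against the candidates in the same part of a gene, X regions outside genes were kept about as often as autosomal ones, and X regions inside genes less often. Outside genes, 65 of 1222 X regions were kept (5.32%, 4.13 to 6.73), against 5.61% of autosomal regions (5.04 to 6.21). In coding sequence, 7 of 1681 were kept on X (0.416%, 0.168 to 0.856) and 209 of 11338 on autosomes (1.84%, 1.60 to 2.11). In introns the shares were 1.08% on X (0.557 to 1.87) and 2.30% on autosomes (1.96 to 2.70). In UTRs they were 0.990% (0.120 to 3.53), from 2 kept regions, and 5.91% (4.69 to 7.33). The intervals for X and autosomes are apart in coding sequence, introns and UTRs and overlap outside genes.

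Each replicate had the lower X share in coding sequence and UTRs, with intervals apart from the autosomal ones. In coding sequence the share among the strongest regions was 1.01% on X and 2.11% on autosomes in replicate 1, and 0.260% and 1.96% in replicate 2, so X was lower in both, by unequal amounts. Outside genes it was 4.89% and 5.13% in replicate 1, and 3.91% (2.96 to 5.06) and 5.50% (4.98 to 6.05) in replicate 2, where X was lower too and the intervals only just overlap. In introns the X and autosomal intervals overlap in each replicate, with 1.56% and 2.69% in replicate 1 and 1.47% and 1.90% in replicate 2. In UTRs the shares were 1.20% on X (0.249 to 3.48) and 6.67% on autosomes (5.26 to 8.33) in replicate 1, and 0.452% (0.0115 to 2.50) and 5.44% (4.41 to 6.63) in replicate 2, from 3 X regions and 1.

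**Figure D2:**
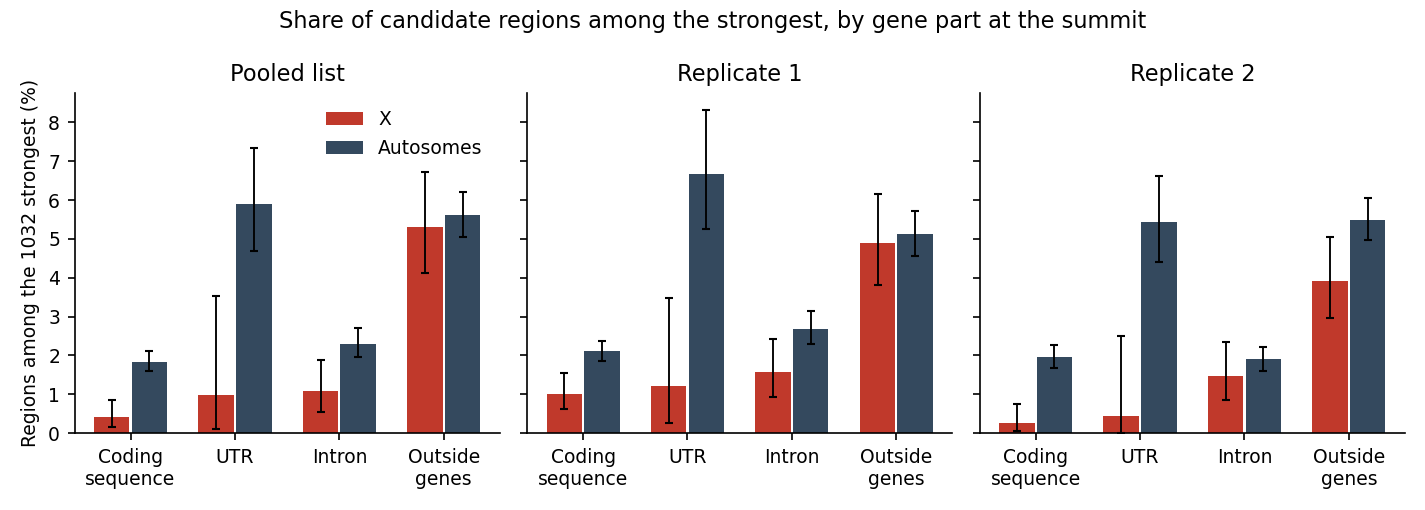
Share of candidate regions that belong to the 1032 strongest of their list (vertical axis, percent), by the gene part at the summit, for X and autosomal regions away from tRNA genes in the pooled list and each replicate. Bars are shares and lines are 95% exact intervals; on X the coding sequence bar is the lower one in each list, while outside genes the intervals of X and autosomes overlap in each list.

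Gene density differs between the chromosomes. Bases outside protein-coding genes make up 44.5% of X and 35.8% of the autosomes, and the median gap between neighbouring protein-coding transcription start sites (TSSs) is 3188 bp on X and 2027 to 2138 bp on the autosomes. Per Mb of whole chromosome sequence, X had 4.85 kept regions away from tRNA genes and the autosomes 9.46. The 75 kept X regions near tRNA genes are left out of these densities, as are autosomal regions near tRNA genes. Outside genes the densities were 8.25 per Mb on X and 11.6 on autosomes, and in coding sequence they were 1.98 and 9.88 per Mb. In introns they were 2.21 and 5.41 per Mb, and in UTRs 2.33, from 2 regions, and 19.8 per Mb. The density was lower on X in each of these 4 parts.

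Kept X regions lay in promoter windows less often than kept autosomal ones, and the same was true of all candidates. Promoter windows reached 1000 bp before and 500 bp past each protein-coding TSS. They cover 26.8% of X and 33.0% of the autosomes, so X has a smaller share of such sequence to begin with. They held 37 of the 86 kept X summits (43.0%, 32.4 to 54.2) and 53.4% of kept autosomal summits (49.8 to 56.9), intervals that overlap. Among all candidates the shares were 28.6% on X (27.2 to 29.9) and 36.1% on autosomes (35.5 to 36.6). In a narrower window, from 500 bp before to 250 bp past the TSS, the shares were 25.6% and 39.2%. The median distance to the nearest TSS was 1100 bp for kept X regions, 674 bp for kept autosomal regions and 1472 bp for the other X regions. Outside both genes and promoter windows lay 34 of the 86 kept X regions (39.5%, 29.2 to 50.7) and 17.3% of the kept autosomal ones (14.7 to 20.1). Such sequence makes up 32.2% of X and 23.4% of the autosomes. Among X candidates in a promoter window, 3.07% were kept (2.17 to 4.21), against 4.57% on autosomes (4.15 to 5.01).

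The strongest X region had its summit at position 11094207, outside protein-coding genes and 3979 bp downstream of the TSS of W02H3.3. Its signal was 370 in the pooled list, 172 in replicate 1 (rank 35) and 191 in replicate 2 (rank 18). The next region, at 4209281 and 1796 bp upstream of F20B6.9, had a signal of 300.4, with 131 in replicate 1 and 184 in replicate 2. The region that followed, with 287 in the pooled list, 113 in replicate 1 and 176 in replicate 2, lay in an intron of mom-1, which acts in the release of Wnt signals. All 3 stand among the 200 strongest regions of each replicate. Their windows, printed first above, hold GCGCAGGG, and the mom-1 window holds it in 2 places.

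Further strong regions lay at 13700884 (signal 264, nearest TSS that of K02D3.1 at 6023 bp), 11937520 (261, F55G7.5) and 16056632 (248, T27A8.7). These windows lack GCGCAGGG. The first has the form GCGAAGGG, and the windows at 11937520 and 16056632 hold the shorter GCAGGG in 3 places and 1 place. The region at 14525892 (239.6) lay 711 bp upstream of nspc-17, of a family of nematode-specific peptides. Of the 10 strongest X regions, 8 were narrower than 250 bp, against 14 of all 86 kept X regions (16.3%) and 15.9% of kept autosomal regions. Autosomal regions of matching signal were not set beside these 10, so the narrow width is not shown to be a trait of X.

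GCGCAGGG stood in 7 of the 86 kept X windows (8.14%, 3.34 to 16.1). It stood in 8 of the other 4134 X windows (0.194%, 0.0836 to 0.381), in 2 of 781 kept autosomal windows (0.256%, 0.0310 to 0.922) and in 0.103% of all 30000 candidate windows. These letters were chosen after the strong X windows had been seen, so the shares are a description with no test. A match gives letters and not a site bound by the dosage compensation complex, and no known rex positions were used. In replicate 1, 8 of its 112 strongest X regions held it (7.14%), against 0.258% of its strongest autosomal regions. In replicate 2 the shares were 8 of 76 (10.5%) and 0.124%.

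Of the 15 X windows with the letters, 7 were of kept regions and 8 of weaker ones. Of the 21 strongest X regions, 6 held GCGCAGGG (28.6%, 11.3 to 52.2), of the next 22 only the region at 1837880 did, and none of those ranked 44 to 172 on X did (0 of 43 and 0 of 86, with upper limits of 8.22% and 4.20%). The other 8 were 1 of the 172 regions ranked 173 to 344, 2 of the next 344, 2 of the next 688 and 3 of the last 2844, shares of 0.105% to 0.581%. Of the 195 strongest autosomal regions, 1 held it (0.513%, 0.0130 to 2.82). The 7 kept X regions with the letters had signals from 174 to 370 with a median of 239.6, and the median of the other 79 was 143. In 5 of the 7 the summit lay outside protein-coding genes, in the other 2 it lay in an intron, and 1 of the 7, at nspc-17, lay in a promoter window. Their median distance to a TSS was 2633 bp, against 1001 bp for the kept X regions without the letters. The copies lay a median of 13.5 bp from the summit.

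**Figure D3:**
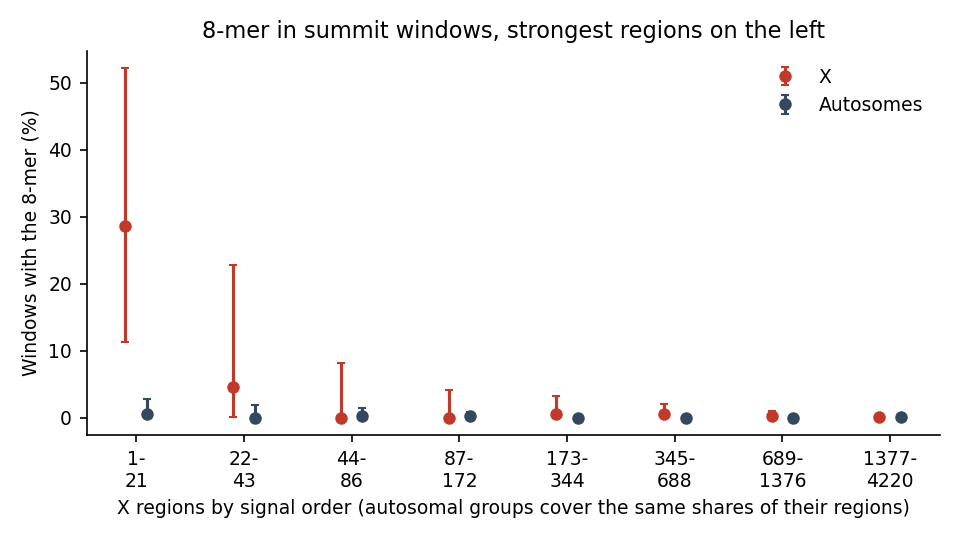
Share of summit windows that hold the 8-letter sequence described in the text (vertical axis, percent), in groups of X regions by order of signal and in autosomal groups that cover matching shares of their regions. Points are shares and lines are 95% exact intervals; the 21 strongest X regions stand at 28.6% and the groups further right at 4.55% or less.

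Across the genome sequence, GCGCAGGG occurs on either strand 79 times on X (4.46 per Mb) and 233 times on the autosomes (2.82 per Mb). On X, 18 of the 79 copies lay in the window of a candidate region away from tRNA genes and 8 in that of a kept region (10.1%, 4.47 to 19.0). On the autosomes, 15 of 233 lay in a candidate window and 2 in a kept one (0.858%, 0.104 to 3.07). Most X copies therefore were in no window of a candidate away from tRNA genes, and 10 of the 18 with one lay in regions that were not kept.

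The shorter GCAGGG was in 14 of the 86 kept X windows (16.3%, 9.20 to 25.8), in 2.08% of other X windows, in 2.30% of kept autosomal windows and in 2.04% of all candidates. In the strongest X regions it stood at 13.4% in replicate 1 and 17.1% in replicate 2. GTTCNANNC, the letters of the B box inside tRNA genes, served as a contrast and was in 6 of the 86 (6.98%, 2.60 to 14.6), in 4.28% of other X windows and in 8.19% of kept autosomal windows. The 6 regions lie more than 250 bp from any annotated tRNA gene, and 1 of them holds the snoRNA gene C53B7.8 nearby.

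All 2080 6-mers were ranked by the difference in share between kept and other X windows, which chooses them by that difference. The first was ACACAC, in 26.7% of kept X windows, 6.92% of other X windows and 9.48% of kept autosomal windows. CACACA, which overlaps it, came next at 26.7%, 8.42% and 9.60%, then CGTCTC at 20.9%, 5.20% and 11.1% and CGCGCA at 18.6%, 3.24% and 9.22%. CTGCGC, which overlaps the reverse complement of GCGCAGGG, was in 18.6%, 3.48% and 6.27%. Kept X windows were also rich in G and C, with a median of 52.5% (interquartile range 47.5 to 56.4) against 45.5% in other X windows, 48.5% in kept autosomal windows and 35.2% for X as a whole. The share of G and C moves with the 6-mer counts, and its part in them was not tested.

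The replicates ranked the strong X regions unevenly. Of the 86 kept summits, 36 fell within regions that each replicate placed in its strongest 1032 (41.9%, 31.3 to 53.0), 34 in those of replicate 1 alone, 12 in those of replicate 2 alone and 4 in neither. Of the 781 kept autosomal regions, 355 were in both (45.5%, 41.9 to 49.0), 172 in replicate 1 alone and 192 in replicate 2 alone. X regions thus leaned to replicate 1, the list with more X candidates, and autosomal ones did not. All 86 had a candidate in replicate 1, with signals from 36.6 to 209 and a median of 85.1. In replicate 2, 85 had one, with signals from 29.9 to 191 and a median of 66.5. The pooled list was made from the same libraries, so such overlap is partly built in. The 7 regions with GCGCAGGG were in the strongest 1032 of both replicates, and 83 of the 86 also matched a region of the ce10 optimal list.

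**Figure D4:**
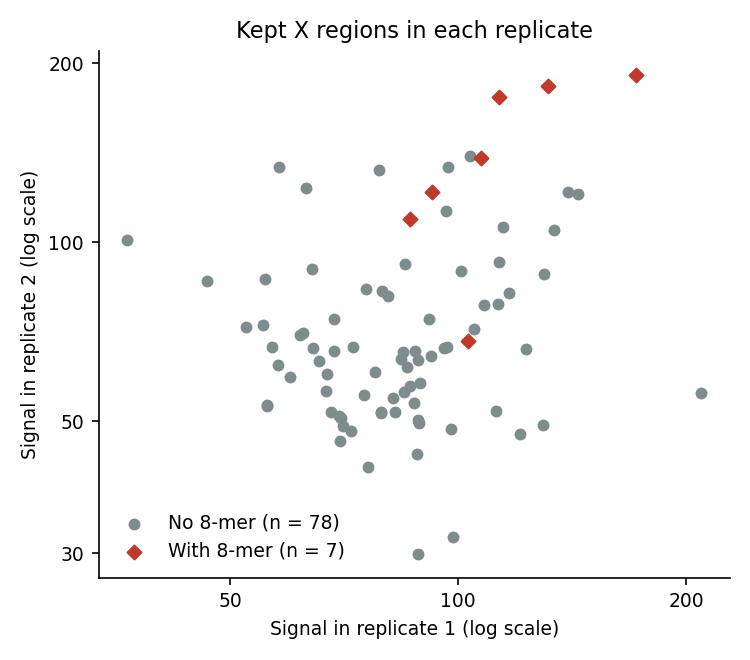
Signal of the kept X regions in replicate 1 (horizontal axis) and replicate 2 (vertical axis), both on log scales, for the 85 of 86 with a candidate in each, marked by whether the summit window holds the 8-letter sequence. The 7 marked regions lie between 86.3 and 172 in replicate 1 and between 68.4 and 191 in replicate 2, and the point far to the right is the region at C30E1.9, with 209 and 55.8.

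Some regions ranked far higher in 1 replicate than in the other. At the noncoding RNA gene C30E1.9, 3 kept regions lay within 5 kb. The strongest, at 16930962, had a signal of 233 in the pooled list, 209 in replicate 1 (rank 15) and 55.8 in replicate 2 (rank 1575). A neighbour at 16931580 had 183 in the pooled list, 108 in replicate 1 (rank 188) and 78.6 in replicate 2 (rank 519), so it was among the strongest 1032 of both. Another at 16929945 had 176 in the pooled list, 78.1 in replicate 1 and no candidate in replicate 2. The reverse was seen at 11603566, downstream of the TSS of the 14-3-3 protein gene ftt-2, with 58.1 in replicate 1 and 134 in replicate 2. At 4148230, near ZK470.2, the values were 36.6 (rank 7990) and 101.1 (rank 226).

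Promoter windows with a kept region away from tRNA genes belonged to 39 of 2731 X protein-coding genes (1.43%, 1.02 to 1.95), against 508 of 17242 autosomal genes (2.95%, 2.70 to 3.21). Such genes numbered 42 with the strongest regions of replicate 1 alone and 25 with those of replicate 2 alone. They cover many functions. After nspc-17 and T13C5.6 (signal 238) came spat-3, which encodes a RING ubiquitin ligase related to Polycomb proteins (217, with 130 in replicate 1 and 88.5 in replicate 2). Next were ftt-2 (209, with 96.4 and 113) and serp-1.1 (206, with 113 and 92.7). At hsp-3, which encodes an endoplasmic reticulum chaperone of the BiP type, the summit lay 49 bp upstream of the TSS, with a signal of 185 and values of 123 and 66.2 in replicates 1 and 2. In each of these 4 genes the region was among the 1032 strongest of both replicates.

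Regulators of transcription and of RNA among these genes were mdl-1, a bHLH protein of the Mad family (174), puf-9, a Pumilio-family RNA-binding protein (168), cebp-1, a bZIP factor (166), ain-1, of the GW182 proteins in microRNA silencing (141), and the nuclear receptor gene nhr-1 (125). For mdl-1 and cebp-1 the signal was 121 and 129 in replicate 1 and 47.6 and 49.2 in replicate 2, ranks 2667 and 2386 there. Genes of protein synthesis and folding were eef-1A.2, a translation elongation factor (162), and pdi-2, a protein disulfide isomerase (134). Genes of the cell's framework were unc-84, a nuclear envelope SUN protein (161), spc-1, alpha spectrin (143), act-4, an actin (133), and pfn-2, a profilin (122). Membrane traffic was represented by epn-1, an epsin (151), and dpy-23, a subunit of the AP2 clathrin adaptor (117). Of the genes in these groups, only puf-9 and unc-84 had their region among the strongest regions of both replicates. The dpy-23 region was in neither, with rank 1840 in replicate 1 and 1856 in replicate 2. All others were in those of a single replicate, and pdi-2 ranked 352 in replicate 1 and 3423 in replicate 2.

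Inside genes, unk-1 carried 4 kept regions, of which the strongest, in an intron, had a signal of 183, with 105 in replicate 1 and 71.5 in replicate 2. Others lay in introns of aak-2, an AMP-activated kinase (153), and of lin-14, a regulator of larval timing (140.0). The aak-2 region was among the strongest regions of both replicates, and the lin-14 region among those of replicate 1 alone. The 7 in coding sequence were 2 in dhs-25 (133 and 128) and 1 each in pks-1 (172), F17H10.1 (139.9), unk-1 (126), vha-20 (119.9) and vit-2 (116). None of these 7 was among the strongest regions of both replicates, and each was among those of a single replicate. The dhs-25 regions ranked 3585 and 347 in replicate 1, and 412 and 10643 in replicate 2. The strongest X regions that were not kept lay in an intron of ZK470.2 (114.3), in an intron of nhr-91 (114.0) and in coding sequence of T07F12.1 (113), just under the weakest kept X region at eat-20 (115.6).

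Noncoding RNA genes of the annotation class ncRNA lay within 250 bp of 30 of the 86 kept X summits (34.9%, 24.9 to 45.9), against 11.3% of the other X summits and 14.9% of kept autosomal ones. Many of these genes have no name beyond a sequence name, and some, such as C30E1.9, lie near more than 1 kept summit. The sets also differ in the share outside protein-coding genes, with 75.6% of kept X, 28.0% of other X and 44.0% of kept autosomal summits. The part of this in the ncRNA shares was not tested. The long noncoding RNA gene tts-1 had a kept region with a signal of 186, with 100.9 in replicate 1 and 89.4 in replicate 2. Among small RNA genes other than tRNAs, 1 of 33 X snoRNA genes had a kept region (3.03%, 0.0767 to 15.8), against 63 of 313 on autosomes (20.1%, 15.8 to 25). It was C53B7.8 (signal 214, with 117 and 82.2). Of 74 X microRNA genes, 1 had a kept region, against 9 of 187 on autosomes (4.81%, 2.22 to 8.94). It was cel-mir-54 (192, with 113 and 78.7), of the mir-51 family, in an intron of F09A5.3. X has 3 annotated snRNA genes and none had a kept region (upper limit 70.8%), while 17 of 126 did on autosomes.

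For the genes of X-specific pathways the counts are too small to read. Bound here means a kept region away from tRNA genes in the promoter window, as for 1.43% of X genes and 2.95% of autosomal genes. None of the 2 X-linked genes of the dosage compensation complex, nor of its 8 autosomal genes, had such a region in the promoter window. The same held for 4 X-linked genes that signal X dose to xol-1 or respond to it. At sdc-2, which directs the complex to X, the best candidate in the promoter window had a signal of 61.2 (rank 7490), and at sdc-1 it had 44.8 (rank 15920). For the X signal elements ceh-39 and fox-1 the best were 79.6 (rank 3332) and 62.7 (rank 6976). At sex-1 and at xol-1, the switch that sets male fate, the promoter window had no candidate.

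The tissue lists on X were mostly without kept regions, as were most X genes. Of 27 collagen genes, 22 homeobox genes, 34 neuropeptide and insulin genes, 34 chemoreceptor genes, 20 potassium channel genes, 7 acetylcholine receptor genes, 6 innexin genes and 5 respiratory chain genes on X, none had a kept region in the promoter window. Nor did any of the 5 X-linked vitellogenin genes, whose yolk proteins are made in the hermaphrodite intestine. The gene vit-2 did have the region in its coding sequence given above, which was among the strongest regions of replicate 1 alone. Of 23 nuclear receptor genes the 1 bound was nhr-1, of 9 muscle genes it was act-4, and of 5 chaperone genes it was hsp-3. With 1.43% of X genes bound, lists of this size are expected to hold few or none, so nothing is read from a 0. X also holds just 2 of the cytosolic ribosomal protein genes in the list, and neither was bound, against 21 of 76 on the autosomes.

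The kept X regions were spread along the chromosome. In 10 equal stretches from the left end, they numbered 8, 7, 11, 13, 9, 2, 9, 7, 8 and 12. The sixth stretch, with 2, also had the fewest X candidates, 312, while the ninth had the most, 519. The kept share ran from 0.641% to 2.97%. The median gap between neighbouring kept summits was 124 kb and the largest 1293 kb. Of the 86, 15 had another within 5 kb, and merging overlapping regions left 85 loci. Kept X regions near tRNA genes, 75 in all, were most frequent in the eighth stretch, with 16, where 7 of the regions away from tRNA genes lay.

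**Figure D5:**
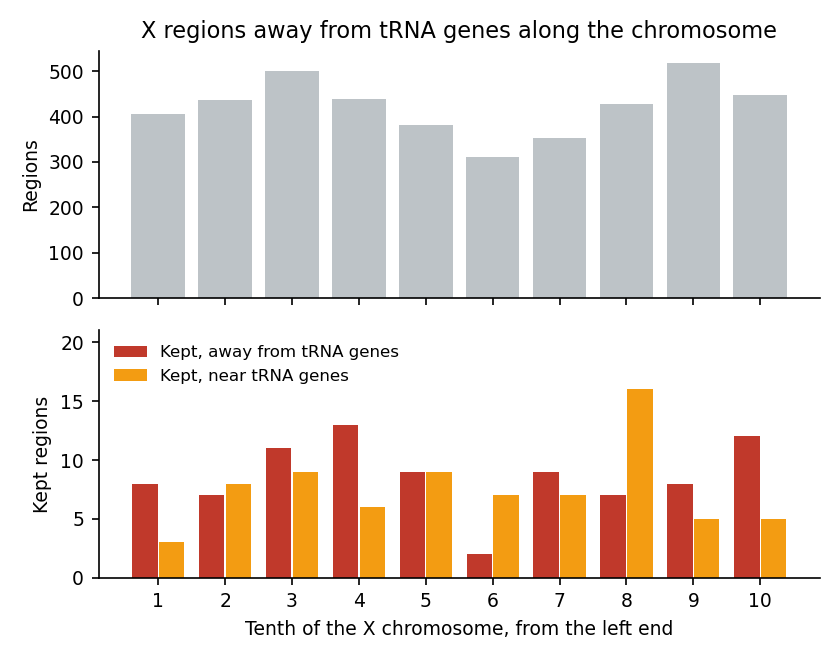
Number of X regions away from tRNA genes (upper panel) and of kept X regions away from and near tRNA genes (lower panel) in 10 equal stretches of X from its left end. Kept regions away from tRNA genes number from 2 to 13 per stretch, while those near tRNA genes peak at 16 in the eighth.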

How the data were processed

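Lists of candidate and optimal regions on ce11, made by the authors, were used for 2 biological replicates and their pool. Per the file headers and manifests, each candidate list came from the alignments of a replicate, or of both, and of a control. The aligner, caller, software versions and threshold of the irreproducible discovery rate were not given in the sources used. The signal of each region and its −log10 q value are as the authors deposited them; the latter was not used for ranking. No read counts were used, so depth and its precision are unknown.

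Summits were placed on gene models of Ensembl release 115, and sequence was read from RefSeq's copy of that assembly, with Python 3 scripts (pandas, scipy). Kept means present in the optimal list, and the 1032 strongest regions stood for it in each replicate. Regions in a list can overlap. The ce10 optimal list entered by width, summit offset and signal within 0.1%. Shares carry 95% exact Clopper-Pearson intervals for counting error only, and no test was run because the series has 1 group and regions are not replicates. Distances, intervals and motif counts were tested on simulated data.

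The members and gene lists were chosen with earlier results of these data known. Named were genes at most, not all, of the 25 strongest kept X regions and up to 4 per list. X-pathway genes and the 3 strongest regions not kept were also named. Others were chosen after their values were seen, as were all motifs. Alternatives changed the tRNA distance, list, promoter window, matching rule and sequence window.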

Additional observations from a re-analysis of the deposited data

How the results depend on the processing

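No paired analysis was possible because all samples belong to 1 group. Repeat-masked windows, merged overlapping regions, other motif forms, gene parts and gene counts were tried after seeing the data. The kept share of X regions stayed below the autosomal share in all 12 alternatives. It was 2.80% (2.33 to 3.33) with summits merely outside tRNA genes, an interval that holds the autosomal 3.21%, so the separation was lost there, and 1.02% and 5.17% (1.45% and 6.38%) with fewer and with more of the strongest pooled regions taken, where the number taken sets the level. With 1 replicate left out it was 1.93% to 2.26%. The X share of kept regions was 12.9% outside tRNA genes and 8.62% to 12.6% with 1 replicate left out. The ratio of medians was 0.966 to 0.981 then. The promoter share was 25.6% in a window of 500 bp upstream to 250 bp downstream (autosomes 39.2%), and 34.2% to 37.5% with 1 replicate left out. The share outside genes was 61.6% to 72.4% then, and the kept share in coding sequence 0.260% to 1.01%, from 3 and 21 regions. The share with GCGCAGGG was 7.14% to 10.5% then, and 16.3% for GCAGGG. X genes with a kept region in the promoter window numbered 22 in the narrower window and 25 to 42 with 1 replicate left out, 25 without replicate 1. The share found in both replicates was 30.2% with 50% reciprocal overlap, 79.1% with the list length doubled and 98.8% with all candidates. The GC median was 47.9% over whole regions. Where no construction explains a change, the cause was not tested.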
